A study of Mus musculus with 8 samples.

Results

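Transcripts of macrophages and neutrophils were followed in newborn mouse hearts, connexin43 null and wildtype. The set was a list of 10 genes, C1qa, C1qb, Tyrobp, Csf1r, Cd68, Lyz2 and Cd14 for macrophages and monocytes, and S100a8, S100a9 and Mpo for neutrophils. A gene was taken through probes that carried its symbol alone, and it was used when at least 3 arrays of each genotype had a value. Of the 10 genes 9 had such a probe, 11 probes in all, and 8 genes passed the requirement for values, among 11804 features tested in the whole series.  C1qa, C1qb, Cd68, Lyz2, Tyrobp, S100a8, S100a9 and Mpo are the genes that passed. Csf1r, the receptor for the macrophage growth factor CSF1, was matched to no probe of its own symbol. The probe for Cd14, a co-receptor for bacterial lipopolysaccharide, had no value on any array, as did 12.4% of all 28704 probes.

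Each of 8 arrays compared cDNA from a pool of 3 hearts, labelled with Cy3, against cDNA of 1 common reference, labelled with Cy5. There were 4 pools of wildtype C57BL mice and 4 pools of connexin43 null C57BL mice, all neonatal and with no treatment named. The sources used here do not say how the null allele was made, nor the age in days or sex of the pups. The reference had been made from adult C57BL mice of both sexes, and included spleen and lung, which are rich in macrophages and neutrophils, as well as liver, kidney, brain, stomach, gonads, aorta and heart. The unit is the log2 ratio, heart over reference, after the median of each array was set to 0. A level below 0 is therefore a low ratio to that reference and not a low amount of transcript.

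Macrophages settle in the heart before birth and remain there as resident cells that clear debris and take part in growth and conduction. Their C1q chains start the classical complement pathway, their CSF1 receptor sustains them, and TYROBP passes on signals from several surface receptors. Neutrophils are made in bone marrow and fetal liver and reach the heart mainly with its blood. They carry S100A8 and S100A9, which pair into calprotectin, and myeloperoxidase, a granule enzyme that makes hypochlorous acid. In whole hearts, fewer cells of a type and less RNA per cell cannot be told apart.

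S100a8 and S100a9 lie next to each other, with 0 protein-coding genes between their starts in the RefSeq gene table, and they encode the 2 chains of calprotectin, so their upstream sequences are shown for comparison. Both are the 250 bases before the gene's start, 5′ to 3′ on the gene's strand, from RefSeq, build GRCm38.p6, which held a promoter entry for 6 of the 10 genes. Capitals mark matches on either strand to GAGGAA, the PU box bound by the myeloid factor PU.1, to TTNNGNAA, a C/EBP-type motif, and to TATAAA, the TATA box.
S100a8, chr3:90668821-90669070, strand +: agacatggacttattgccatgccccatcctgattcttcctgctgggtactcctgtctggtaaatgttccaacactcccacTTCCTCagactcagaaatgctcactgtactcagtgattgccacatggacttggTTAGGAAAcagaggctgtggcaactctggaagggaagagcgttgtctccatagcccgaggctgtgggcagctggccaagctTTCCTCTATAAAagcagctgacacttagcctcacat
S100a9, chr3:90695722-90695971, strand -: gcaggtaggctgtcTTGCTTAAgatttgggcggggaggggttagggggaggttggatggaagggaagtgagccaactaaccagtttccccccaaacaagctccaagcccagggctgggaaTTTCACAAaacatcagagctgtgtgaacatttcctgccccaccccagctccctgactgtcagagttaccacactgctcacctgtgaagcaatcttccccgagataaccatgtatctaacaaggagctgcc
The S100a8 window held 2 matches to GAGGAA, 1 to TTNNGNAA and 1 to TATAAA, the latter at positions -30 to -25 from the start and directly after a PU box match. The S100a9 window held 2 matches to TTNNGNAA, and GAGGAA and TATAAA are not in its letters. Of 32841 windows of the same length in the RefSeq table, 23.3% held GAGGAA, 36.9% TTNNGNAA and 12.4% TATAAA, so that such matches are common. Among the other windows of member genes, those of C1qb, Cd68 and Mpo held GAGGAA and those of Cd68 and Lyz2 held TTNNGNAA.

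Before the members, the arrays were checked against their labels. Gja1, which encodes connexin43, had a mean log2 ratio of 1.03 ± 0.21 in wildtype and 0.08 ± 0.25 in null hearts (SD, n = 4 each), with no overlap between genotypes. Its exact two-sided permutation p was 0.0286, the smallest that 70 assignments allow. Sarcomere genes had a higher median than liver, lung, brain and testis genes on 8 of 8 arrays, which sets the direction of the ratio as heart over reference and checks the tissue. Spots with a value ranged from 12971 to 23929 per array. Wildtype replicate 1 had the fewest and stood apart, with a median rank correlation of 0.576 to the other arrays against 0.663 to 0.792 for the rest. Differences of single genes that moved by over 1.5 times without this array are also given without it.

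No member differed between the genotypes beyond the spread between pools. The limma fit across 11804 features called 0 members and 0 features at an adjusted p of 0.05, which is 0% of all features. Gja1 itself, with a difference of -0.95 and rank 2 by p, had a limma adjusted p of 0.340 and was not called. The absence of calls therefore does not show that levels were equal. At an unadjusted p under 0.05 the fit counted 0 of the 8 members and 972 features, 8.23% of all, with 2.1% higher and 6.13% lower in null hearts. Values were lower in null hearts for 5 members and higher for 3, where 59.1% of all features were lower and 40.9% higher. The share of all features that were lower was 85.0% without centring and 49.1% after subtraction of the smooth trend of differences against mean ratios, and 6 and 2 of the 8 members were then lower. With arrays scaled to equal spread, or with array weights, 3 members were lower. The median log2 difference of the members was -0.08 against -0.04 for all features. Without wildtype replicate 1 Cd68 turned to 0.09 and S100a8 moved to -0.02. The split of 5 and 3 and the median of the members thus rest in part on that array. The ranges of the genotypes overlapped for all 8 members that passed, and 7.54% of all features had ranges that did not overlap, 2% higher and 5.54% lower in null hearts. The difference furthest from 0 was that of S100a9, with values 1.35-fold lower in null hearts.

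**Figure D1:**
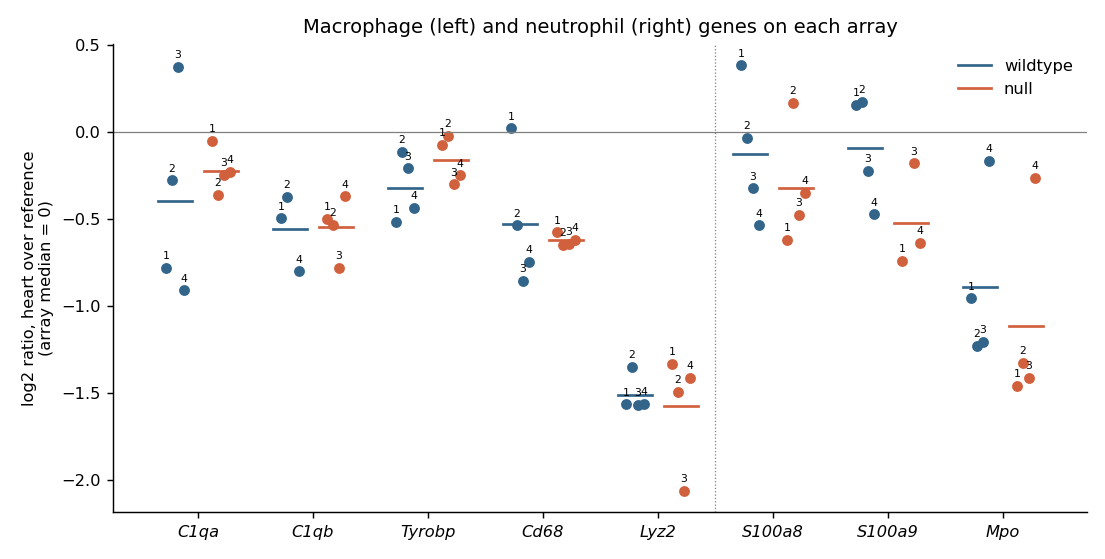
Log2 ratio of heart over reference (vertical axis, array median at 0) for the 8 member genes that passed, with 1 point per array, the replicate number above it, wildtype in blue and null in orange, and a bar at each group's mean. The genotypes overlap for each gene, and for Mpo replicate 4 of both genotypes lies above all other arrays.

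Of the macrophage genes, those of complement are given first. C1qa, which encodes the A chain, read -0.78, -0.28, 0.38 and -0.91 on wildtype replicates 1 to 4 and -0.05, -0.36, -0.25 and -0.23 on null replicates 1 to 4. Wildtype pools were widely spread and enclosed all 4 null pools, which lay close together. The means were -0.40 ± 0.58 in wildtype and -0.22 ± 0.13 in null hearts (SD, n = 4 each). The difference of 0.18 (SE 0.24, 95% interval -0.35 to 0.70) had a limma adjusted p of 0.851. Leaving out 1 wildtype array moved it to 0.44 (replicate 3), 0.05 (replicate 1) or 0.0067 (replicate 4).

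C1qb, which encodes the B chain and is separated from C1qa by the C chain gene C1qc alone among coding genes, read -0.50, -0.37 and -0.80 on wildtype replicates 1, 2 and 4, with no value on replicate 3. The null arrays read -0.50, -0.54, -0.78 and -0.37, so that both genotypes covered nearly the same range. The difference was 0.0095 (SE 0.15, 95% interval -0.32 to 0.34, limma adjusted p = 0.987), over 3 wildtype and 4 null arrays. Its sign turned without centring, to -0.23, and it was 0.04 without wildtype replicate 1. The array with the highest C1qa value, wildtype replicate 3, is the array on which C1qb had no value. On wildtype replicate 4 both chains had their lowest wildtype value.

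Tyrobp, which encodes the ITAM-bearing adaptor DAP12, read -0.52, -0.12, -0.21 and -0.44 in wildtype and -0.07, -0.02, -0.30 and -0.25 in null hearts. The 2 highest values were null and the 2 lowest wildtype, with overlap between them. Its difference of 0.16 (SE 0.12, 95% interval -0.12 to 0.43) did not pass, with a limma adjusted p of 0.734, and was 0.09 without wildtype replicate 1.

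Cd68, which encodes a glycoprotein of macrophage lysosomes, read 0.02, -0.54, -0.86 and -0.75 in wildtype and -0.58, -0.65, -0.64 and -0.62 in null hearts. The null pools were nearly alike, with an SD of 0.033, and lay within the wildtype range, whose SD was 0.39. The difference was -0.09 (SE 0.17, 95% interval -0.47 to 0.28, limma adjusted p = 0.896). Wildtype replicate 1 alone lay above 0, and without it the difference was 0.09.

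Lyz2, which encodes the lysozyme of macrophages and neutrophils, read -1.57, -1.35, -1.57 and -1.57 in wildtype and -1.34, -1.50, -2.06 and -1.41 in null hearts. Only 0.576% of all features had a lower mean ratio than Lyz2. Null replicate 3 lay below all other arrays, and the other null pools lay above 3 of the 4 wildtype pools. The difference of -0.06 (SE 0.16, 95% interval -0.41 to 0.28, limma adjusted p = 0.927) became 0.10 without null replicate 3.

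Among neutrophil genes, S100a8 read 0.38, -0.03, -0.32 and -0.54 in wildtype and -0.62, 0.17, -0.48 and -0.35 in null hearts. The highest value was wildtype and the lowest null, with null replicate 2 as the second highest. The difference was -0.19 (SE 0.21, 95% interval -0.66 to 0.28, limma adjusted p = 0.814). It was -0.02 without wildtype replicate 1 and -0.36 without null replicate 2, the range over arrays left out in turn.

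S100a9, whose product pairs with that of S100a8, read 0.16, 0.17, -0.23 and -0.47 in wildtype hearts. It read -0.74, -0.18 and -0.64 on null replicates 1, 3 and 4 and had no value on null replicate 2. Wildtype replicates 1 and 2 lay above all null arrays, while wildtype replicates 3 and 4 lay within the null range. The means were -0.09 ± 0.31 (SD, n = 4) and -0.52 ± 0.30 (SD, n = 3), a difference of -0.43 (SE 0.20, 95% interval -0.86 to 0.0067). Its limma adjusted p was 0.594 and its unadjusted p 0.0530, rank 1034 of 11804. The difference stayed below 0 with each array left out in turn, from -0.60 to -0.32, and was -0.35 without wildtype replicate 1. The null array without an S100a9 value, replicate 2, is the null array with the highest S100a8 value.

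Erythroid markers, which mark blood in the heart, had on the 6 genes with a value on all arrays a mean level of -0.16, 0.09, 0.07 and -0.63 in wildtype and -0.02, 0.07, -0.18 and -0.07 in null hearts. Wildtype replicate 4, the lowest of these, also had the lowest wildtype values of S100a8 and S100a9, but the highest wildtype value of Mpo, at -0.16. Wildtype replicate 1, the highest for S100a8, had a mean of -0.16, but the erythroid markers disagreed on it. Slc4a1 read 0.24 there, its highest wildtype value, and Car1 -0.34, its lowest of all arrays, while Hbb-bh1 and Rhag had no value. Of 9 erythroid markers measured 7 had higher and 2 lower values in null hearts, with 0 called in limma and a median difference of 0.19. The part of blood content in the S100a8 and S100a9 values was not tested.

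Mpo, which encodes myeloperoxidase, had 3 probes, of which 1 passed. On that probe wildtype hearts read -0.96, -1.23, -1.21 and -0.16 and null hearts -1.46, -1.33, -1.41 and -0.26. Replicate 4 of each genotype lay far above the other arrays, which ranged from -1.46 to -0.96. The difference was -0.23 (SE 0.29, 95% interval -0.87 to 0.42, limma adjusted p = 0.844). Leaving out replicate 4 of wildtype gave 0.01, of null -0.51, and of both genotypes -0.27, the last without a test.

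The other Mpo probes had fewer values. The second gave -0.15, -0.44, -0.15 and -0.52 on the wildtype arrays and had no value on any null array. Such a pattern was found for 27 of 28704 probes, and the reverse, values on all null and no wildtype arrays, for 4. The third probe gave -0.19 and -0.23 on wildtype replicates 3 and 4 and -0.21, -0.41 and -0.10 on null replicates 1, 2 and 4, with overlapping ranges. Null replicate 4 was the highest of the 5 values of the third probe, whereas wildtype replicate 4 was the lowest wildtype array on both probes. The sources used here do not say why spots lack a value, so that a missing value was read neither as low nor as absent.

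**Figure D2:**
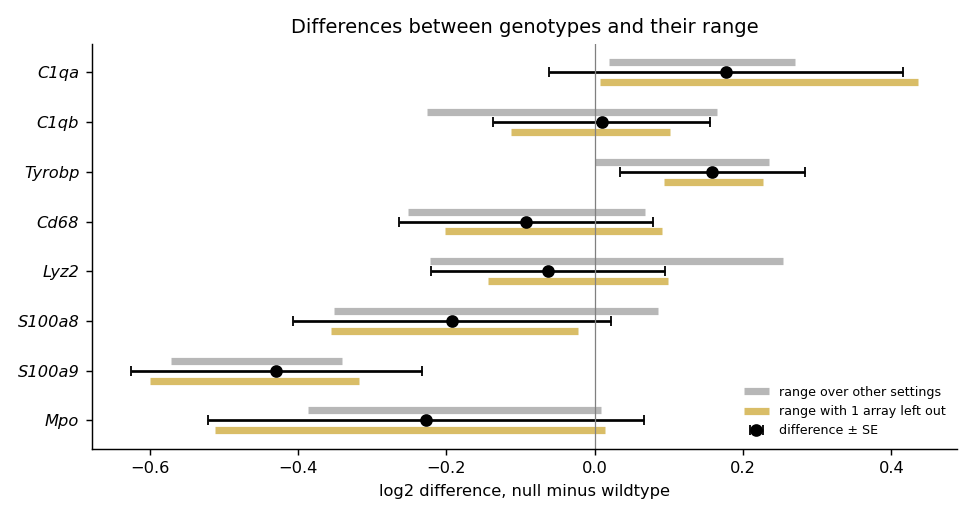
Log2 difference, null minus wildtype (horizontal axis), of each member with its SE (black), its range over the other processing settings (grey) and its range with 1 array left out in turn (gold). The S100a9 ranges lie below 0 and the C1qa and Tyrobp ranges above 0, and the other members cross 0 in at least 1 range.

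Against the adult reference the 8 members all had a mean ratio below the array median, where 49.8% of features lay below 0. Their position among all features, as the share of features with a lower mean ratio, was 0.576% for Lyz2, 1.80% for Mpo, 5.26% for Cd68 and 5.70% for C1qb. It was 14.2% for C1qa, 17.0% for S100a9, 20.5% for Tyrobp and 22.3% for S100a8. Lyz2 was at -1.34 or lower on each array, whereas S100a8, S100a9, C1qa and Cd68 each had at least 1 array above 0. These positions rank ratios to the reference, not amounts of transcript, so that they give no order of expression among the members. Dyes were not swapped, so that a dye effect of a probe remains in these levels and cancels between genotypes.

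**Figure D3:**
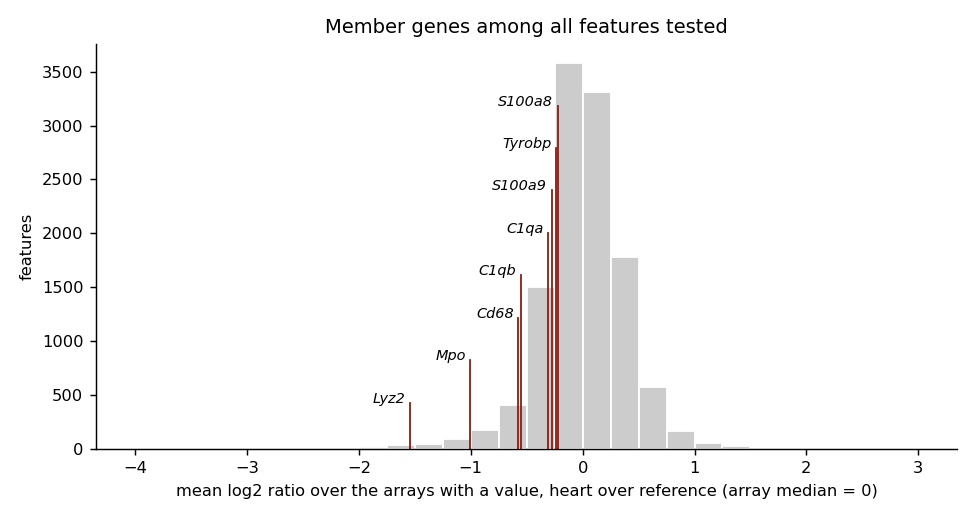
Number of features (vertical axis) by mean log2 ratio of heart over reference (horizontal axis), with red lines at the 8 member genes, whose height carries no value. Lyz2 and Mpo lie in the low tail and the other members between the low tail and the centre.

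Further macrophage and monocyte genes were described from a list around the members. Of 10 such genes that passed and are no members, 2 had higher and 8 lower values in null hearts, with 0 called and a median difference of -0.21 against -0.04 for all features. After subtraction of the smooth trend of differences against mean ratios, a correction added after seeing the data, 5 of the 10 were lower, with a median of -0.04. Without wildtype replicate 1, 9 of the 10 were lower, with a median of -0.18. When the probe with the fewest missing values stood for each gene, 7 of the 10 were lower, also with a median of -0.18. Fcgr3, which encodes an activating Fc receptor, read 0.86, -0.53, 0.39 and -0.73 in wildtype and -0.49, -0.70 and -0.64 on null replicates 2 to 4. Its difference was -0.61 (SE 0.33, limma adjusted p = 0.625), and -0.32 without wildtype replicate 1. Pf4, a chemokine gene of platelets and macrophages, had -0.48 (SE 0.23) and Folr2, a folate receptor gene of resident macrophages, had -0.43 (SE 0.21). Without wildtype replicate 1, which had the highest value of each of these 3 genes, Pf4 had -0.25 and Folr2 -0.20. Fcer1g, which encodes the common Fc receptor gamma chain, had -0.25 (SE 0.12), but its 3 probes read 0.02, -0.30 and -0.49.

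Non-member neutrophil genes were few. Of 4 that passed, 2 had higher and 2 lower values in null hearts, with 0 called and a median difference of 0.0055. That median was -0.04 without wildtype replicate 1. After subtraction of the smooth trend it was 0.10, with 1 of the 4 lower. With values required on only 2 arrays per genotype, 4 of 6 were lower, with a median of -0.09. Padi4, which encodes an enzyme that converts arginine of histones to citrulline, had 0.24 (SE 0.20, limma adjusted p = 0.746), and 0.07 without wildtype replicate 2. Pan-leukocyte genes had 1 higher and 5 lower of 6, with 0 called and a median of -0.11, and the proteoglycan gene Srgn had -0.17 (SE 0.12), with -0.41 and -0.05 on its 2 probes and -0.09 without wildtype replicate 1.

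The signalling partners of the members are given next. Csf1, the growth factor for the CSF1 receptor, read 0.81, 0.65, 0.52 and 0.61 in wildtype and 0.85, 0.53, 0.43 and 0.75 in null hearts. Its levels were above 0 on all 8 arrays, and its difference was -0.0084 (SE 0.12, limma adjusted p = 0.986), or 0.04 without wildtype replicate 1. Of 4 measured genes of the CSF1 receptor pathway and of myeloid transcription, 1 had a higher and 3 lower values, with a median of -0.07. The 3 lower genes, Maf, Irf8 and Csf1, each had their highest wildtype value on wildtype replicate 1. Since Csf1 turned higher without that array, the count rests in part on it. Maf, a transcription factor gene of macrophages, had -0.47 (SE 0.26), and -0.21 without wildtype replicate 1.

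Of 6 measured partners of TYROBP and ITAM signalling, Fcer1g included, 3 were higher and 3 lower in null hearts, with 0 called and a median of -0.02. Without centring 6 of the 6 were lower, with a median of -0.16, and with array weights the median was -0.10. The kinase gene Syk had 0.15 (SE 0.14), 0.07 without wildtype replicate 1 and -0.01 without centring. The kinase gene Btk had -0.35 (SE 0.16, limma adjusted p = 0.594). Its 3 values per genotype did not overlap, and its difference was -0.21 without null replicate 1 and -0.18 with array weights. Of 9 genes of CD14 and toll-like receptor signalling 3 were higher and 6 lower, with 0 called, 2 lower at an unadjusted p under 0.05 and a median of -0.12. At that threshold 6.13% of all features were lower. The median of these 9 genes was -0.045 after subtraction of the smooth trend and -0.055 with array weights. Without centring 8 of the 9 were lower, with a median of -0.28. Nfkbia, which encodes an inhibitor of NF-kB, had -0.35 (SE 0.13, limma adjusted p = 0.558), and its null values, -0.42 to -0.10, lay below its wildtype values, -0.04 to 0.41. The endosomal receptor gene Tlr7 had -0.46 (SE 0.19, limma adjusted p = 0.588) over 3 arrays per genotype. On null replicate 4 Tlr7 read -0.34, within its wildtype range of -0.39 to -0.13. Its difference was -0.66 to -0.33 with 1 array left out, and -0.30 with values required on only 2 arrays per genotype. Traf6, an adaptor of these receptors, had -0.30 (SE 0.17), with -0.31 and -0.30 on its 2 probes, and -0.13 without wildtype replicate 4.

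Of other complement genes 3 of 3 were lower and 0 were called, among them C1ra, which encodes a protease of the C1 complex, at -0.33 (SE 0.15), and -0.18 without wildtype replicate 3. Of 3 class II genes of antigen presentation H2-Eb1 had -0.38 (SE 0.12, limma adjusted p = 0.553), but -0.69 and 0.0070 on its 2 probes, and the other 2 were higher. Each of these 2 had 1 array apart from the rest. H2-Ab1 read -0.78 on null replicate 4, against -1.65 to -1.44 on the other arrays with a value. H2-Aa read -0.72 on wildtype replicate 1, against -0.54 to -0.13 on the other arrays. Lymphocyte markers had 1 higher and 1 lower of 2. Mast cell and platelet markers had 1 higher and 4 lower of 5. Among these the mast cell chymase gene Cma1 had -0.71 (SE 0.27, limma adjusted p = 0.568), and -0.39 without wildtype replicate 1. Its 2 probes taken alone had -0.65 and -0.48, both smaller in size than the combined value.

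Markers of other cells and tissues were read beside these lists. Genes of other adult tissues, which had the lowest ratios to the reference, were lower in null hearts for 9 of 9, with a median of -0.33, 0 called and 5 lower at an unadjusted p under 0.05. Averaged over the 7 with a value on all arrays, they ranged from -2.29 to -1.84 in wildtype and from -2.71 to -2.28 in null hearts. Endothelial markers were higher for 6 of 7 with a median of 0.18, and fibroblast markers for 5 of 5 with a median of 0.12, and 0 of either were called. Averaged over the 5 endothelial markers with a value on all arrays, wildtype arrays read 0.38 to 0.92, with replicate 1 the highest. Null arrays read 0.71 to 0.83, within the wildtype range. Averaged over the 4 fibroblast markers with a value on all arrays, wildtype replicate 1 read 0.28. The other wildtype arrays read 0.64 to 0.87 and the null arrays 0.56 to 0.90. The fibroblast count therefore rests in part on wildtype replicate 1. The non-member macrophage genes with a value on all arrays, 8 in number, averaged -0.51 to -0.20 in wildtype and -0.72 to -0.43 in null hearts, ranges that overlapped. The part of these other cells and of the low ratios in the macrophage values was not tested.

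**Figure D4:**
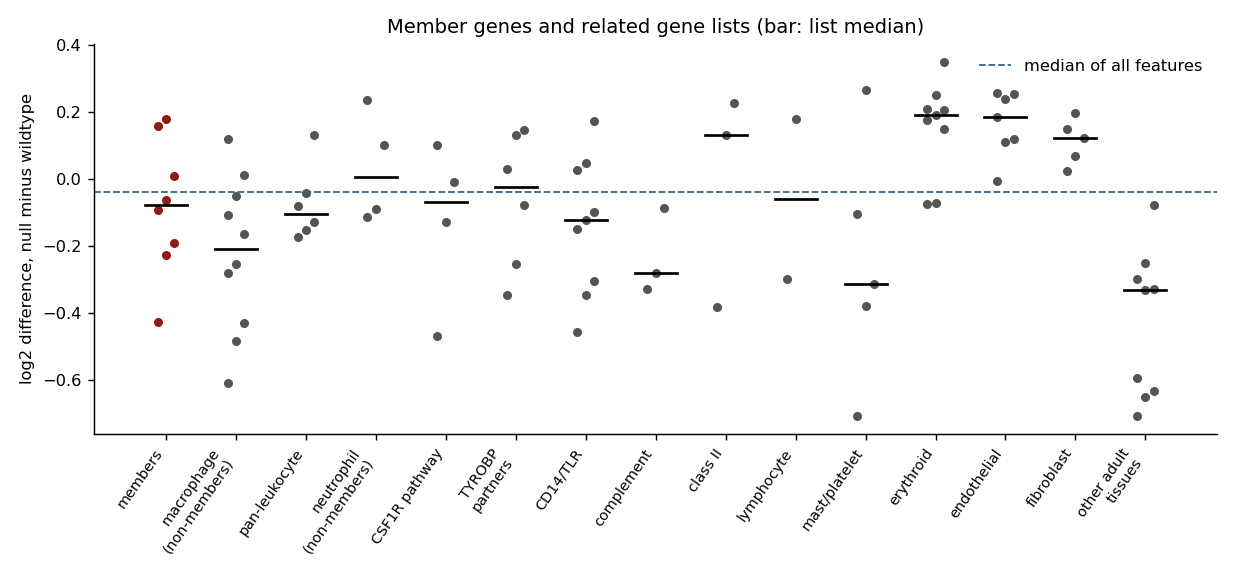
Log2 difference, null minus wildtype (vertical axis), of the member genes (red) and of measured genes of each related list (grey), with a bar at each list's median and a dashed line at the median of all features, -0.04. Members scatter on both sides of the dashed line, and genes of other adult tissues lie below it.

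The genes whose profile over the 8 arrays was nearest to the mean of C1qa, Tyrobp, Cd68 and Lyz2 were Rabggta, Sec62, H6pd, Nexn and Ece2. Nearness was the root mean square distance of log2 ratios after each gene's mean was removed, and was 0.04 (log2) for Rabggta and 0.05 for Ece2, where the macrophage mean had an SD of 0.14 over arrays. For the mean of S100a8 and Mpo they were Abcf2, Dazap2, Enpp5, Gorasp2 and 1700088E04Rik, at distances of 0.08 to 0.12 with an SD of 0.29. These genes were taken from 5584 and 3965 candidates and are given as a description. None of the non-member genes of the myeloid lists was among them, which says little where only 5 were kept from so many candidates.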

How the data were processed

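Values were log2 ratios of the 2 dyes per spot as deposited by the authors. The sources used here do not name the scanner, background correction, spot filter or scaling. Base 2 was read from the deposited values, since 8347 differences within print blocks equalled log2 of a quotient of integers up to 120 within 1.5e-09, against 269 for base e and 863 for base 10. Arrays were median-centred. Probes were named through the platform annotation, 18511 with 1 symbol, 937 with several and 9256 without. Probes sharing a symbol were combined in an additive model of probe plus array. Features with values on at least 3 arrays per genotype were fitted with lmFit and eBayes (limma 3.58.1, R 4.3.3); p-values were adjusted (Benjamini-Hochberg) across 11804 features and read at 0.05. Nothing says that the pools came from separate litters, so that p-values cover only pool-to-pool spread. Figures used Python 3.11.15 and matplotlib 3.10.9. Members are all reported, other genes from up to 4 per list with the smallest p-value (in its list of 4, Csf1 was picked as the ligand, after its values were seen), and 5 genes by likeness of profile. Members and lists were chosen with earlier results of these data known. Alternatives changed centring, normalization, missing values, probes, eBayes, array weights, threshold, replicate block and arrays used. The correction for the trend on the mean ratio was added after seeing the data.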

Additional observations from a re-analysis of the deposited data

Results flagged for a closer look

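Of 16 sets of 4 arrays examined for the members and Gja1, 2 held an array far from the others, and chance alone gives about 1 in 20. In wildtype hearts Lyz2 read -1.35 on replicate 2, with the other wildtype arrays at -1.57. In null hearts Mpo read -0.26 on replicate 4, against -1.46 to -1.33 on the other null arrays.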

How the results depend on the processing

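The number of members called and the number of features called were 0 under each alternative that was run. The count of features at an unadjusted p under 0.05 was 614 when values on all 8 arrays were required, which tests fewer features, and 688 to 1025 with 1 array left out. Several small differences changed sign, and the cause was not tested. C1qb became -0.23 without centring and -0.00659 with centring within print blocks, and was -0.11 to 0.10 with 1 array left out. Cd68 became 0.000938 with arrays scaled to equal spread, 0.00677 with array weights and 0.0672 after the correction for the trend on the mean ratio, and was -0.202 to 0.0912 with 1 array left out. Lyz2 became 0.0611 with scaling and 0.254 after the trend correction, and was -0.144 to 0.0991 with 1 array left out. Mpo became 0.00882 after the trend correction, and was -0.512 to 0.0142 with 1 array left out. S100a8 became 0.0847 with array weights. Fcer1g was 0.0228 on its first probe, as a single probe and as that with the fewest missing values. Syk was -0.0131 without centring. Csf1 was 0.00781 with quantile normalization and 0.00186 with array weights, and -0.0771 to 0.0601 with 1 array left out. C1qa, Tyrobp and S100a9 kept their direction under each alternative that was run, but the first 2 came near 0. Over the settings that kept all arrays C1qa was 0.019 to 0.271, Tyrobp 0.000236 to 0.235 and S100a9 -0.571 to -0.34, and C1qa was 0.00665 to 0.436 with 1 array left out. Of the 8 members, the number lower in null hearts was 3 with scaling or array weights and 2 after the trend correction. Without centring the median difference of all features was -0.18. The labels give both genotypes replicate numbers 1 to 4 without saying that litter or day was shared. Deviations of arrays with the same number correlated at -0.24, -0.0090, -0.25 and -0.016, so that these arrays did not deviate alike. Such correlations cannot tell whether litter or day was shared. With the replicate number as a block 0 features were called, and 728 had an unadjusted p under 0.05. The number of arrays limits the precision: the median SE of a log2 difference was 0.14.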
